A study of Mus musculus with 26 samples.

Results

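Hyperplasia epithelium was set against normal epithelium of the mouse tongue, over all genes of the deposited table, including those that stand in several of its rows. The comparison rested on 6 of the 26 RNA-seq libraries of the series, 3 labelled hyperplasia and 3 labelled normal. All came from males of the inbred CBA strain, in a model of oral cancer driven by the DNA-damaging compound 4-nitroquinoline oxide (4-NQO). Epithelium was cut by laser from thin stained sections of paraffin-embedded tongue, within areas mapped by a pathologist. Normal epithelium 1, 2 and 3 came from mice of 16, 24 and 20 weeks, and hyperplasia epithelium 1, 2 and 3 from mice of 20, 24 and 32 weeks. Normal epithelium 1 and 2 and hyperplasia epithelium 1 were sequenced in run 2, and the other 3 libraries in run 1. Whether the mice with normal tissue received 4-NQO is not in the labels, so lesion and treatment cannot be told apart. They name neither the animal nor the surface of the tongue, so p-values measure the spread between libraries. Within the normal and within the hyperplasia group all ages differ, but libraries of the same age in different groups may share an animal. The 7 other epithelium libraries, 4 of dysplasia and 3 of tumor, entered the fit to estimate the spread and the effect of the run. Differences are adjusted for run, so they can depart from those between the printed group values. After a difference the sign ± gives its standard error in the fit, and after the mean of a stage the SD over its libraries.

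The tongue's surface is a stratified squamous epithelium whose upper side carries filiform papillae, small spines that cornify with hair-type keratins and keratin-associated proteins. Hyperplasia is a thickening of this epithelium, regarded as an early step on the way to dysplasia and carcinoma. Keratinocytes under stress switch on keratins 6, 16 and 17 and the calprotectin subunits, and under interferon they raise the MHC class I pathway, which shows peptides to cytotoxic T cells. Peptides are cut by the proteasome, carried by the TAP transporter and loaded onto a heavy chain paired with beta-2 microglobulin.

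The table gave log2(TPM + 1), where TPM is a length-scaled relative abundance that keeps no record of depth. A log2 difference on this scale understates changes of low genes, and a value of 0 says only that a gene was listed at 0. Normal epithelium 3 and hyperplasia epithelium 2 stood apart from the other 4 libraries. They had 189 and 145 rows at 0 against 1806 to 3180, and a mean log2 level of 156 olfactory receptor rows, used here as background, of 1.82 and 1.90 against 0.614 to 0.913. There was 1 such library in each group, both of run 1. The epithelium label held against its markers, with Krt13, a keratin of oral mucosa, at 13.16, 13.77 and 12.72 in normal and 13.75, 12.51 and 14.81 in hyperplasia epithelium. Summed TPM of 7 keratinocyte markers ranged from 13700 to 27300 in normal and from 10500 to 51600 in hyperplasia epithelium. Total TPM over all rows differed too, at 301094, 482472 and 325683 in normal and 496682, 288277 and 696932 in hyperplasia epithelium. Summed levels were not corrected for these totals. Of the 18676 rows, 2279 belonged to 626 gene identifiers with several rows each. The table prints the same mouse symbol for all rows of such a family, so those rows are named here by their human ortholog label (KRT6A_2), and which paralog a row measures is not given. How reads were split between such near copies is not known either.

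In hyperplasia 18 rows passed the test, 9 higher and 9 lower, of 15240 tested (limma, adjusted p under 0.05), which is 0.118% in all and 0.0591% in each direction. Those that rose were B2m and Nlrc5 of the class I pathway, class I heavy chain rows HLA-E_6 and HLA-E_5, and the antiviral row OAS1_1. The others were the stress keratin row KRT6A_2, the chitinase row CHIA_3, the cytochrome row CYP2B6_1 and the homeobox gene Irx2. Those that fell were 5 keratin-associated protein rows, the homeobox gene Tlx1, the orphan receptor Gprc5d, the kinesin-related Kif26a and the iron reductase Cybrd1. In each of the 18 rows all 3 hyperplasia libraries lay beyond the 3 normal libraries. Of the 18, 10 stood among genes with several rows, which is 0.898% of the 1114 such rows tested against 0.0566% of the 14126 rows of genes with a single row. Leaving out hyperplasia epithelium 1 gave 0 up and 0 down (limma), where the smallest adjusted p was 0.296 and 231 rows had an unadjusted p under 0.05. That library is the only hyperplasia epithelium of run 2, so without it all hyperplasia libraries are of run 1. The loss of the library and the poorer balance of stage and run cannot be told apart in that count. Leaving out normal epithelium 1 gave 1 up and 2 down, and leaving out normal epithelium 2 gave 3 and 2. The omission of hyperplasia epithelium 2 gave 27 and 13, and that of hyperplasia epithelium 3 gave 14 and 43. Quantile normalization gave 30 up and 12 down and median centring 9 and 6.

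**Figure D1:**
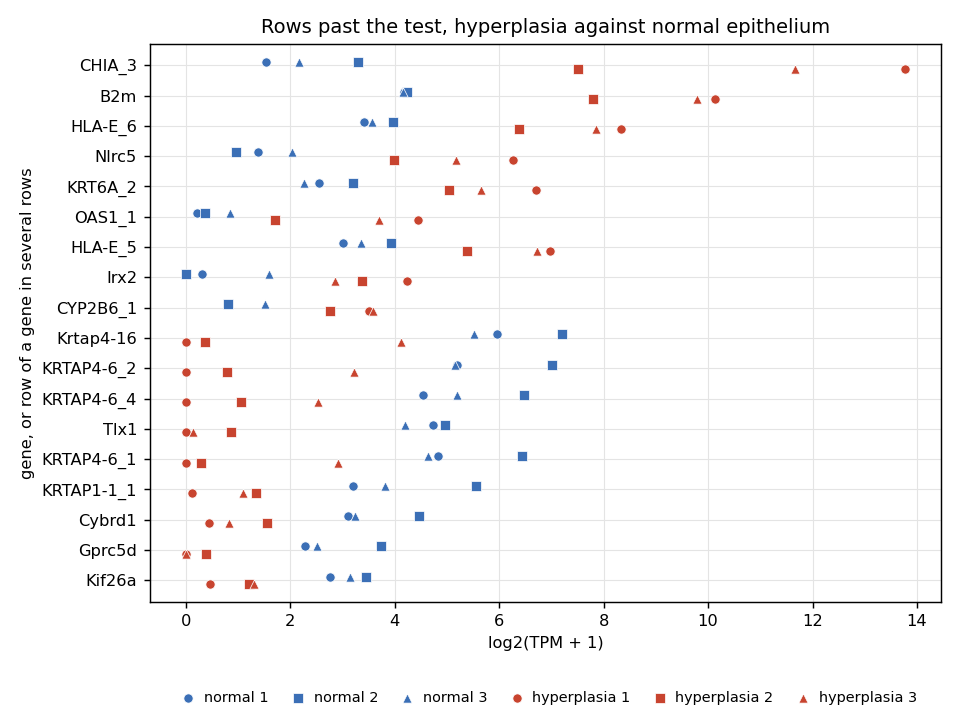
Level of the 18 rows past the test in each of the 6 libraries, as log2(TPM + 1) on the horizontal axis, blue for normal and red for hyperplasia, with a marker shape for each library number. No red marker falls among the blue ones in any row, and hyperplasia 1 (circles) is farthest from normal in most rows.

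Since the groups did not overlap in these 18 rows, the sign within a run was fixed, and the sizes within runs are given as values. Run 1 held 1 normal and 2 hyperplasia libraries and run 2 held 2 normal and 1 hyperplasia library. Differences of the rows that rose ran from 1.51 (Irx2) to 7.43 (CHIA_3) in run 1 and from 2.69 (CYP2B6_1) to 11.35 (CHIA_3) in run 2. Those of the rows that fell ran from -1.88 (Kif26a) to -3.70 (Tlx1) in run 1 and from -2.65 (Kif26a) to -6.58 (Krtap4-16) in run 2. Over all rows tested the median difference was 0.08 and 56.9% were positive, and median centring moved that median to -0.03. An unadjusted p under 0.05 in limma was reached by 369 rows upward (2.42%) and 229 downward (1.5%). Together these are fewer rows than a threshold of 0.05 would pass by chance with no change in any row. Hyperplasia lay wholly above normal in 601 rows (3.94%) and wholly below in 238 (1.56%). Both shares are also below those that a random order of the 6 libraries would give. These shares are the background for the counts of each list below.

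B2m, the light chain of every classical class I molecule (chromosome 2, 122147686 to 122153083, GRCm38), was at 4.18, 4.24 and 4.16 in the normal libraries and at 10.13, 7.81 and 9.78 in the hyperplasia libraries. The normal values were nearly alike (mean 4.19 ± 0.04) and far below all 3 hyperplasia values (mean 9.24 ± 1.25). The difference was 5.17 ± 0.69 on the log2 scale (adjusted p = 0.00529), and it held in 18 of 19 alternatives, the exception being the omission of hyperplasia epithelium 1 (adjusted p = 0.296).

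Nlrc5, the transactivator that switches on class I genes (chromosome 8, 94434356 to 94527272), stood at 1.38, 0.96 and 2.03 in normal and 6.26, 3.99 and 5.17 in hyperplasia epithelium. It rose by 3.73 ± 0.61 (adjusted p = 0.0126), with its highest value in hyperplasia epithelium 1. Heavy chains are encoded by a cluster of near-identical genes, which the table gives as 20 HLA-E rows. HLA-E_6 was at 3.41, 3.97 and 3.57 in normal and 8.33, 6.38 and 7.86 in hyperplasia epithelium and rose by 3.97 ± 0.63 (adjusted p = 0.0126). HLA-E_5 was at 3.00, 3.92 and 3.36 in normal and 6.97, 5.39 and 6.72 in hyperplasia epithelium and rose by 3.00 ± 0.57 (adjusted p = 0.0381). Both rows thus ordered the lesions as B2m did, with hyperplasia epithelium 1 the highest and 2 the lowest. Of the 16 HLA-E rows tested, a family picked after the data were seen, 13 had positive differences (median 0.78), 2 rose and 7 lay wholly above normal. HLA-E_16 had the next largest difference at 3.20 ± 1.04 (adjusted p = 0.57), and HLA-E_1, the most negative, was at -0.19 ± 0.64.

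The class I list held 14 measured genes, all tested, of 28 entries, since the heavy chains stand in the rows above. All 14 differences were positive (median 1.64, and 1.51 and 1.53 under quantile normalization and median centring), 2 rose and 8 lay wholly above normal. The immunoproteasome subunits, which trim peptides for class I, were among those that missed the threshold. Psmb9 was at 0.41, 1.17 and 1.72 in normal and 4.72, 2.81 and 3.89 in hyperplasia epithelium (2.83 ± 0.57, adjusted p = 0.0547). Psmb8 was at 0.72, 0.99 and 1.44 in normal and 5.18, 2.93 and 3.97 in hyperplasia epithelium (3.10 ± 0.64, adjusted p = 0.0611). In neither did the groups overlap. The subunits of the peptide transporter had like values, with Tap1 at 2.59 ± 0.57 (adjusted p = 0.0958) and Tap2 at 2.38 ± 0.53 (adjusted p = 0.0971). Tap1, Psmb9, Psmb8 and Tap2 lie side by side on chromosome 17, between 34181987 and 34216321. The list's median was 1.41 in run 1 and 2.04 in run 2.

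**Figure D2:**
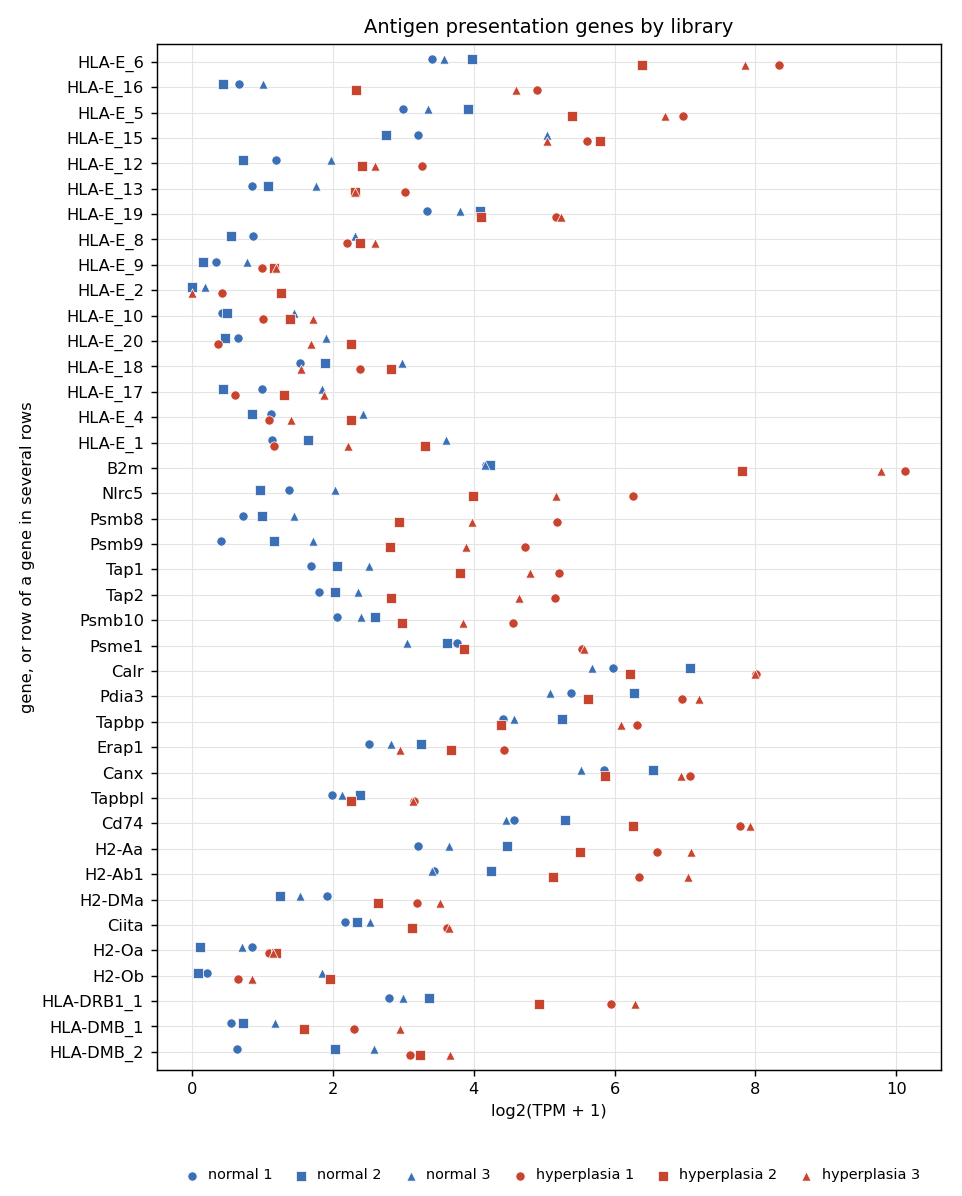
Antigen presentation rows by library, as log2(TPM + 1) on the horizontal axis, with blue for normal and red for hyperplasia and a marker shape for each library number. HLA-E rows stand at the top, the class I list from B2m to Tapbpl in the middle and class II rows at the bottom. B2m shows the widest gap, while HLA-E_17, HLA-E_18, HLA-E_4 and HLA-E_1 overlap.

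The promoters of B2m, Tap1 and, for the interferon genes described next, Bst2 are printed to show which carry the core of the interferon-stimulated response element (ISRE), here GAAA, any 2 bases and GAAA again, read on either strand. Each RefSeq window (GRCm38.p6) runs from 250 bases before to 50 after the gene's start, and capitals mark the motif.
B2m, chr2:122147437-122147736, plus strand: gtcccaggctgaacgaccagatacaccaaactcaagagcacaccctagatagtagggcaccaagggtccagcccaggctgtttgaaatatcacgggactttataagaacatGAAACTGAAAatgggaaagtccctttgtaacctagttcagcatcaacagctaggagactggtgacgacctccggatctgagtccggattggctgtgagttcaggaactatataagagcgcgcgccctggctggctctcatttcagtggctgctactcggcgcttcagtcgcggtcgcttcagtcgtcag
Bst2, chr8:71537423-71537722, minus strand: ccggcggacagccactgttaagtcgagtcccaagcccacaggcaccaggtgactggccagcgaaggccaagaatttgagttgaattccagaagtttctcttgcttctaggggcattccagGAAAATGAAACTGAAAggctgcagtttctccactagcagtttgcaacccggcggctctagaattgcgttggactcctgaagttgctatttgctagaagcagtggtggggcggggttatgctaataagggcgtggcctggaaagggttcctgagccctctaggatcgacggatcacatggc
Tap1, chr17:34187306-34187605, plus strand: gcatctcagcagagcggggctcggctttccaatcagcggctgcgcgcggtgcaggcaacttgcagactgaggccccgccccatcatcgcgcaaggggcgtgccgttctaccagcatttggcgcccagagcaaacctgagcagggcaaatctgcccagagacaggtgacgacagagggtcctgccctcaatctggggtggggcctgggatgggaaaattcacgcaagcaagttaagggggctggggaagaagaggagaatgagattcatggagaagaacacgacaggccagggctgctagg
The B2m window held 1 match, whose first base lies 139 before the start, and the Bst2 window held 2 overlapping matches, the first starting 130 before it. The Tap1 window held none, and it shares 275 bases with the window of Psmb9, which is read from the other strand. The motif stood in 3.44% of 32851 windows, in 3 of the 11 class I list windows (B2m, Erap1 and Psme1) in 5 of 20 windows of the antiviral list, which belong to 17 genes, and in 0 of 5 class II windows. A pair of other motifs was searched on both strands in the same windows. The gamma-activated site (GAS; TTC, any 3 bases and GAA) stood in 8.3% of all windows, in 1 of 11 class I (Psmb8), 6 of 20 antiviral and 0 of 5 class II windows. The AP-1 motif (TGA, any base and TCA) stood in 7.81% of all windows, in 0 of 11 class I, 4 of 20 antiviral and 1 of 5 class II windows. A match here is a string of letters in a window, and no binding was measured.

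Class II molecules, which show peptides to helper T cells and are typical of dendritic cells and macrophages, also had higher values. Of the class II list 0 genes passed, with 5 at an unadjusted p under 0.05 (limma). All 7 list genes tested had positive differences (median 1.64) and 6 lay wholly above normal. Cd74, the class II invariant chain, was at 4.57, 5.30 and 4.45 in normal and 7.78, 6.25 and 7.93 in hyperplasia epithelium (2.69 ± 0.59, adjusted p = 0.0929). The class II chains H2-Ab1 (2.57 ± 0.59, adjusted p = 0.117) and H2-Aa (2.65 ± 0.63, adjusted p = 0.135) had like differences. Lgals9, the galectin that binds the T cell receptor TIM-3, was at 2.68 ± 0.62 (adjusted p = 0.132), whereas Cd274, which encodes PD-L1, was at -0.22 ± 0.45.

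Markers of antigen-presenting cells also had higher summed levels, without correction for the library totals, and differences that were unequal between runs. Summed TPM of 13 macrophage markers ran from 33.9 to 52.9 in normal and from 88.2 to 256 in hyperplasia epithelium, and of 8 Langerhans and dendritic cell markers from 4.87 to 15.3 and from 26.6 to 32.5. Of the 12 macrophage markers tested 9 were positive (median 1.02), 4 lay wholly above normal and 0 passed the test, with 5 at an unadjusted p under 0.05 (limma). Their median was 0.12 in run 1 and 1.42 in run 2, where the class II list had 1.55 and 1.61. Without the high-background libraries normal epithelium 3 and hyperplasia epithelium 2, the macrophage median was 1.38 and the class II median 1.89. Of the 8 Langerhans and dendritic cell markers 6 were positive (median 0.62, and 0.47 and 0.88 in runs 1 and 2), 4 lay wholly above normal and 0 passed limma's test, with 3 at an unadjusted p under 0.05. Xcr1 (-0.11 ± 0.39) and Clec9a (-0.20 ± 0.46), markers of cross-presenting dendritic cells, were the 2 negative ones. Cd207, the langerin of Langerhans cells, was at 0.24, 1.62 and 1.19 and 3.00, 2.76 and 3.58 (difference 1.96 ± 0.48), while Adgre1, which encodes F4/80, was at 0.39, 0.18 and 0.99 and 1.81, 1.33 and 0.85. T cell markers summed to 9.36 to 33.8 TPM in normal and 11 to 37.7 in hyperplasia epithelium, with 5 of 8 positive (median 0.14). The part of these cells in the class I and class II values was not tested. In bulk tissue a change in the number of cells of a type and a change in RNA per cell cannot be told apart.

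Interferon-stimulated genes had higher values as a group, with 1 row past the test. OAS1_1, a row of the oligoadenylate synthetases that sense double-stranded RNA, was at 0.20, 0.36 and 0.85 in normal and 4.45, 1.72 and 3.70 in hyperplasia epithelium. It rose by 3.02 ± 0.53 (adjusted p = 0.021), and its lowest lesion was again hyperplasia epithelium 2. All 6 OAS1 rows tested, of 8, had positive differences (median 1.14) and 5 lay wholly above normal. Of the 22 antiviral genes tested, 21 were positive (median 1.17), 9 lay wholly above normal and 0 passed, with 14 at an unadjusted p under 0.05 (limma). Bst2, the tetherin that holds budding virus at the cell surface, was at 0.15, 0.79 and 1.31 in normal and 4.68, 1.76 and 4.16 in hyperplasia epithelium (2.81 ± 0.66, adjusted p = 0.135). Oas2 (2.87 ± 0.70), Rtp4 (2.73 ± 0.72) and Isg15, a ubiquitin-like modifier (1.92 ± 0.54), had adjusted p-values from 0.161 to 0.336.

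All 14 signalling factors of the interferon pathway were positive (median 1.23, 0 past limma's test and 9 at an unadjusted p under 0.05), among them Irf7 (2.09 ± 0.52) and Irf9 (1.5 ± 0.45). Their size differed between runs, with a median of 0.26 for the factors and 0.46 for the antiviral genes in run 1 and of 2.08 and 2.22 in run 2. The only normal library of run 1 is normal epithelium 3, of high background. With it and hyperplasia epithelium 2 left out, a choice made after seeing the data, the medians were 1.84 and 1.73. Interferon genes, receptors and kinases had a median of 0.28 over 9 tested. Ifng was below the filter, listed at 0 in 4 of the 6 libraries and at 1.43 and 1.90 in normal epithelium 3 and hyperplasia epithelium 2, those with the highest olfactory receptor level. The chemokines Cxcl9, Cxcl10 and Cxcl11, which interferon gamma induces, had differences of 1.17 ± 0.51, 0.89 ± 0.57 and 0.76 ± 0.37. Of that list of 5 tested genes 4 were positive (median 0.76, lowest -0.60) and 1, Cxcl9, had an unadjusted p under 0.05 (limma).

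Keratins of stressed epithelium were higher, 1 row of them past the test. KRT6A_2 was at 2.55, 3.20 and 2.26 in normal and 6.71, 5.05 and 5.64 in hyperplasia epithelium and rose by 3.19 ± 0.57 (adjusted p = 0.0219). The abundant row KRT6A_4 was at 8.54, 9.27 and 8.14 and 12.61, 11.49 and 12.20 (3.45 ± 0.79, adjusted p = 0.117), and KRT6A_3, the most abundant in normal epithelium, overlapped between groups (1.27 ± 0.83). On the TPM scale, which is per length, the KRT6A rows were thus unequal in both level and difference. Krt17, at 6.04, 7.32 and 5.55 in normal and 10.11, 7.82 and 9.75 in hyperplasia epithelium, differed by 3.04 ± 0.77 (adjusted p = 0.197), and Krt16, its neighbour on chromosome 11, by 2.42 ± 0.80 (adjusted p = 0.596). In both, all lesions lay above all normal libraries.

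S100a8 and S100a9, the calprotectin subunits that bind zinc and calcium, had large differences that did not pass. S100a8 was at 0.48, 1.33 and 1.76 in normal and 7.09, 11.03 and 7.10 in hyperplasia epithelium (6.05 ± 1.55, adjusted p = 0.205). S100a9 was at 0.23, 0 and 1.08 in normal and 7.09, 11.05 and 6.76 in hyperplasia epithelium (6.69 ± 1.6, adjusted p = 0.139). Within runs 1 and 2 the differences were 7.30 and 6.18 for S100a8 and 7.83 and 6.98 for S100a9, all above the fitted ones. Hyperplasia epithelium 2, the lowest lesion for B2m, was the highest for both subunits. Neutrophils also carry these transcripts. Summed TPM of 6 neutrophil markers was 7.58 to 37.7 in normal and 9.77 to 40.2 in hyperplasia epithelium, highest in the library of each group with high background, and their part was not tested. The remaining 6 genes of the S100 list had differences from -0.15 to 1.37.

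CHIA_3 had the largest difference of all rows. The acidic chitinases and chitinase-like proteins of this family degrade or bind chitin and are secreted by macrophages and by some epithelia. CHIA_3 was at 1.54, 3.30 and 2.16 in normal and 13.77, 7.52 and 11.66 in hyperplasia epithelium, a rise of 9.11 ± 1.34 (adjusted p = 0.0106). The lesions themselves differed widely, by over 6 log2 units between hyperplasia epithelium 2 and 1. CHIA_2 was at 2.88 ± 0.85 (adjusted p = 0.435) and CHIA_4 at 1.21 ± 0.61, both with hyperplasia wholly above normal, while CHIA_1 was at -0.24 ± 0.66. The table prints Chil4 as the mouse symbol of all 5 CHIA rows. CYP2B6_1, of a cytochrome P450 family that oxidizes foreign compounds, was at 0.80, 0.82 and 1.52 in normal and 3.50, 2.75 and 3.58 in hyperplasia epithelium and rose by 2.21 ± 0.40 (adjusted p = 0.0236). Its relative CYP2B6_3 was at -0.11 ± 0.44.

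Keratin-associated proteins of the filiform papilla supplied 5 of the 9 rows that fell. These proteins crosslink hair-type keratin filaments. KRTAP1-1_1 was at 3.21, 5.56 and 3.81 in normal and 0.11, 1.33 and 1.10 in hyperplasia epithelium and fell, with a difference of -3.42 ± 0.52 (adjusted p = 0.0107). KRTAP4-6_1 was at 4.83, 6.44 and 4.64 and 0, 0.29 and 2.92 (-4.32 ± 0.70, adjusted p = 0.0126). The rows KRTAP4-6_4 (-4.45 ± 0.73, adjusted p = 0.0126), KRTAP4-6_2 (-4.59 ± 0.81, adjusted p = 0.021) and Krtap4-16 (-4.82 ± 0.94, adjusted p = 0.0447) also fell. Hyperplasia epithelium 1 was at 0 or close to it in these 5 rows, and hyperplasia epithelium 3 was the least reduced in 4 of them. Krtap4-16 held in 7 of 19 alternatives, against 16 of 18 for KRTAP1-1_1, and with a pseudocount of 0.1 the count of rows that fell was 0, with 246 at an unadjusted p under 0.05 (limma).

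Of 47 keratin-associated protein rows 28 were tested, 25 of these were negative (median -2.66) and 12 lay wholly below normal. The hair-type keratins had 13 of 15 rows tested, all 13 negative (median -3.86), with 5 wholly below normal. None passed limma's test, and 10 had an unadjusted p under 0.05. Krt36 was at 9.0, 10.09 and 8.64 in normal and 2.05, 7.08 and 10.32 in hyperplasia epithelium, and KRT86_4 at 7.54, 8.79 and 7.22 and 0, 2.99 and 7.94. Hyperplasia epithelium 3 was thus within or above the normal range for Krt36 and KRT86_4, while hyperplasia epithelium 1 was far below it. The median of the hair keratins was -1.76 in run 1 and -6.36 in run 2, and both families were picked after the data were seen.

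**Figure D3:**
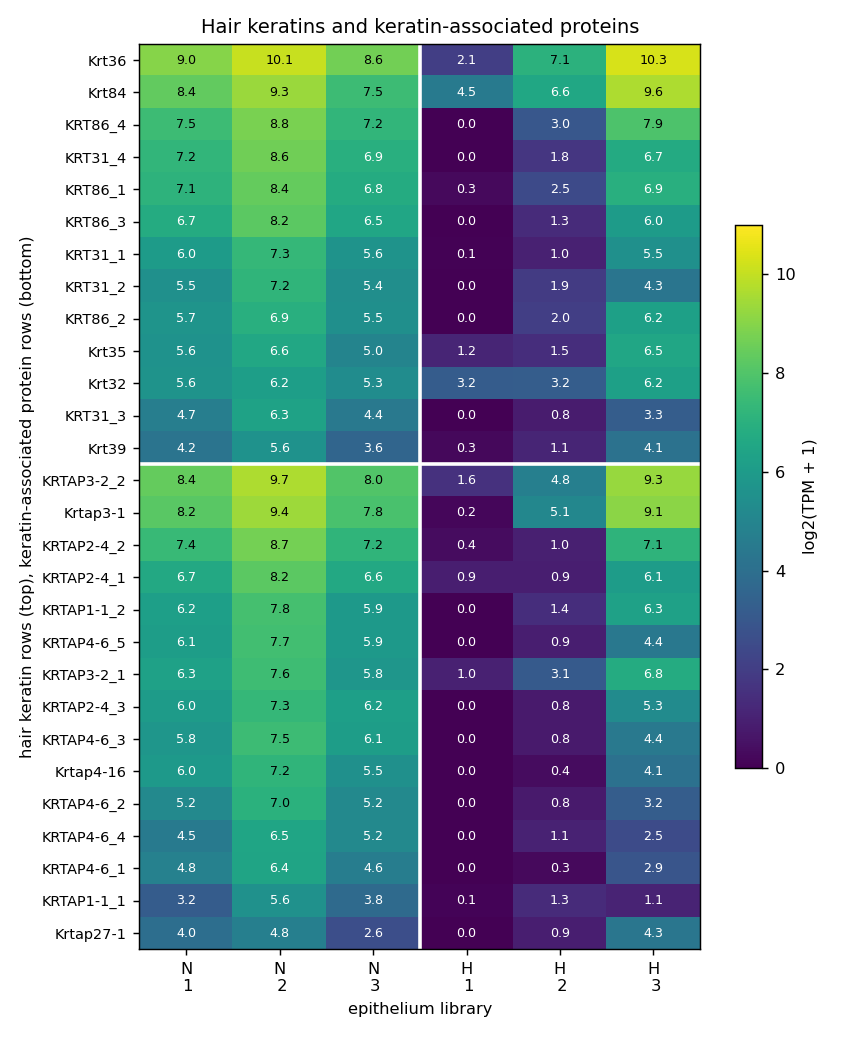
Log2(TPM + 1) of the 13 hair keratin rows (top) and the keratin-associated protein rows with a normal mean of at least 3 (bottom), by library, N for normal and H for hyperplasia, with lighter colours for higher values. H 1 is dark in nearly every row, H 2 is mostly intermediate and H 3 is mostly the nearest lesion to normal. For Krt36 H 3 is at 10.3 against 8.6 to 10.1 in normal. In 5 of the 13 hair keratin rows all lesions lie below normal. In KRTAP4-6_1 H 3 is at 2.9 against 4.6 to 6.4 in normal.

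A receptor and a transcription factor from the papilla list fell as well. Gprc5d, an orphan receptor of hard-keratin cells (chromosome 6, 135105991 to 135118283), was at 2.28, 3.74 and 2.51 in normal and 0, 0.38 and 0 in hyperplasia epithelium (-2.69 ± 0.42, adjusted p = 0.0107). Tlx1, a homeobox transcription factor (chromosome 19, 45150680 to 45156943), was at 4.72, 4.96 and 4.20 in normal and 0, 0.87 and 0.13 in hyperplasia epithelium (-4.39 ± 0.79, adjusted p = 0.0219). Unlike Krt36 and KRT86_4, both were near 0 in hyperplasia epithelium 3 too. Of the 18 tested genes in the papilla list 17 were negative (median -1.23) and 2 fell. Hoxc13, which drives hair keratin genes, was at 3.13, 4.16 and 2.98 in normal and 0.09, 1.71 and 3.83 in hyperplasia epithelium, and Foxn1, a factor of hair and nail differentiation, was at -0.94 ± 0.61. Neither passed. Krt84, a hard keratin of tongue and nail, was at -1.6 ± 1.17 but at 0.14 without hyperplasia epithelium 1.

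Kif26a, a kinesin-like protein without motor activity, fell from 2.77, 3.44 and 3.14 to 0.45, 1.20 and 1.31 (-2.29 ± 0.40, adjusted p = 0.021; chromosome 12, 112146208 to 112181747). Of 29 genes in the list of Wnt, hedgehog and BMP signals, to which it was assigned, 24 were negative (median -0.56), 5 lay wholly below normal and 1 fell. Over all rows tested 1.56% lay wholly below normal and 0.0591% fell. Bmp4, a BMP ligand, was at -1.80 ± 0.44 (adjusted p = 0.161), Gli2, a hedgehog effector, at -1.76 ± 0.56 and Tcf7, a Wnt effector, at -1.69 ± 0.57. Among 20 homeobox genes tested 17 were negative (median -0.61). Irx2, an Iroquois factor (chromosome 13, 72628820 to 72634198), was the exception that rose, from 0.31, 0 and 1.6 in normal to 4.23, 3.37 and 2.86 in hyperplasia epithelium (2.71 ± 0.53, adjusted p = 0.0465), and it held in 7 of 19 alternatives. Cybrd1, a ferric reductase (chromosome 2, 71117923 to 71142926), was at 3.11, 4.46 and 3.23 in normal and 0.44, 1.55 and 0.82 in hyperplasia epithelium and fell by 2.75 (SE 0.53, adjusted p = 0.0438).

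Connective tissue markers had lower values beside the papilla genes. All 8 fibroblast markers had negative differences (median -0.88), 3 lay wholly below normal and 0 passed limma's test, with 3 at an unadjusted p under 0.05. Their summed TPM was 162 to 219 in normal and 41.0, 65.5 and 193 in hyperplasia epithelium 1, 2 and 3. Dcn, which encodes decorin, was at 6.50, 7.13 and 6.38 in normal and 2.53, 4.76 and 6.96 in hyperplasia epithelium. It was low in hyperplasia epithelium 1 and within the normal range in hyperplasia epithelium 3, as the hair keratin row KRT86_4 was. Muscle markers summed to 7.36 to 926 TPM in normal and 26.4 to 265 in hyperplasia epithelium. Whether the share of dissected connective tissue, or the place on the tongue that was dissected, bore on the papilla genes was not tested.

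The rest of the keratinocyte programme showed no row past the test. Krt4 and Krt13, the main keratins of soft oral mucosa, were at 0.27 ± 0.93 and 0.58 ± 0.95, and both turned negative under quantile normalization (-0.37 and -0.28). Krt76, of the palate and tongue, was at 9.29, 9.51 and 8.28 in normal and 1.53, 6.28 and 10.83 in hyperplasia epithelium, so that the lesions spanned the normal values. Krt10, of cornifying layers, was at 8.29, 8.78 and 7.94 in normal and 3.16, 6.23 and 8.21 in hyperplasia epithelium (-2.83 ± 0.95, adjusted p = 0.652). The cornified envelope list had 6 of 15 positive (median -0.12), with Flg, the filaggrin gene, at -2.89 ± 1.67 but at 0.10 without hyperplasia epithelium 1. Basal keratinocyte genes had 14 of 17 positive (median 0.35, and 0.06 under quantile normalization) and 0 wholly above normal, with Trp63 at 0.46 ± 0.64. Adhesion genes included Cdh3, the P-cadherin of basal and cancer cells, at 2.09 ± 0.59 (adjusted p = 0.354), and Dsg4, the hair desmoglein, at -2.43 ± 0.51 (adjusted p = 0.0767).

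No gene of the cell cycle list passed the test. Its members include an inhibitor of the cycle, Cdkn2b, which was at 1.15 ± 0.44 and lay wholly above normal. In the cell cycle list 35 of 38 differences were positive (median 0.70, against 0.08 over all rows, and 0.36 in run 1 and 1.06 in run 2), 4 lay wholly above normal and 0 passed limma's test, with 6 up and 1 down at an unadjusted p under 0.05. Mki67, the Ki-67 antigen, was at 3.76, 4.36 and 3.16 in normal and 5.21, 3.47 and 4.46 in hyperplasia epithelium, so the groups overlapped. The mean log2 level of the list overlapped too, at 2.5, 3.32 and 2.95 in normal and 3.7, 3.01 and 3.48 in hyperplasia epithelium. Among targets of p53, the sensor of DNA damage, 22 of 25 were positive (median 0.39, 0 past limma's test and 2 at an unadjusted p under 0.05), with Btg2 at 1.65 ± 0.52 and Cdkn1a, which encodes p21, at -0.18 ± 0.62. NRF2 and xenobiotic response genes had 14 of 16 positive (median 0.55) and hypoxia and glycolysis genes 15 of 17 (median 0.68), such as the glucose transporter Slc2a1 (2.10 ± 0.64). Ribosomal protein genes had a median of 0.38 and desmosome and adhesion genes one of 0.37, which became -0.07 and -0.02 under quantile normalization.

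**Figure D4:**
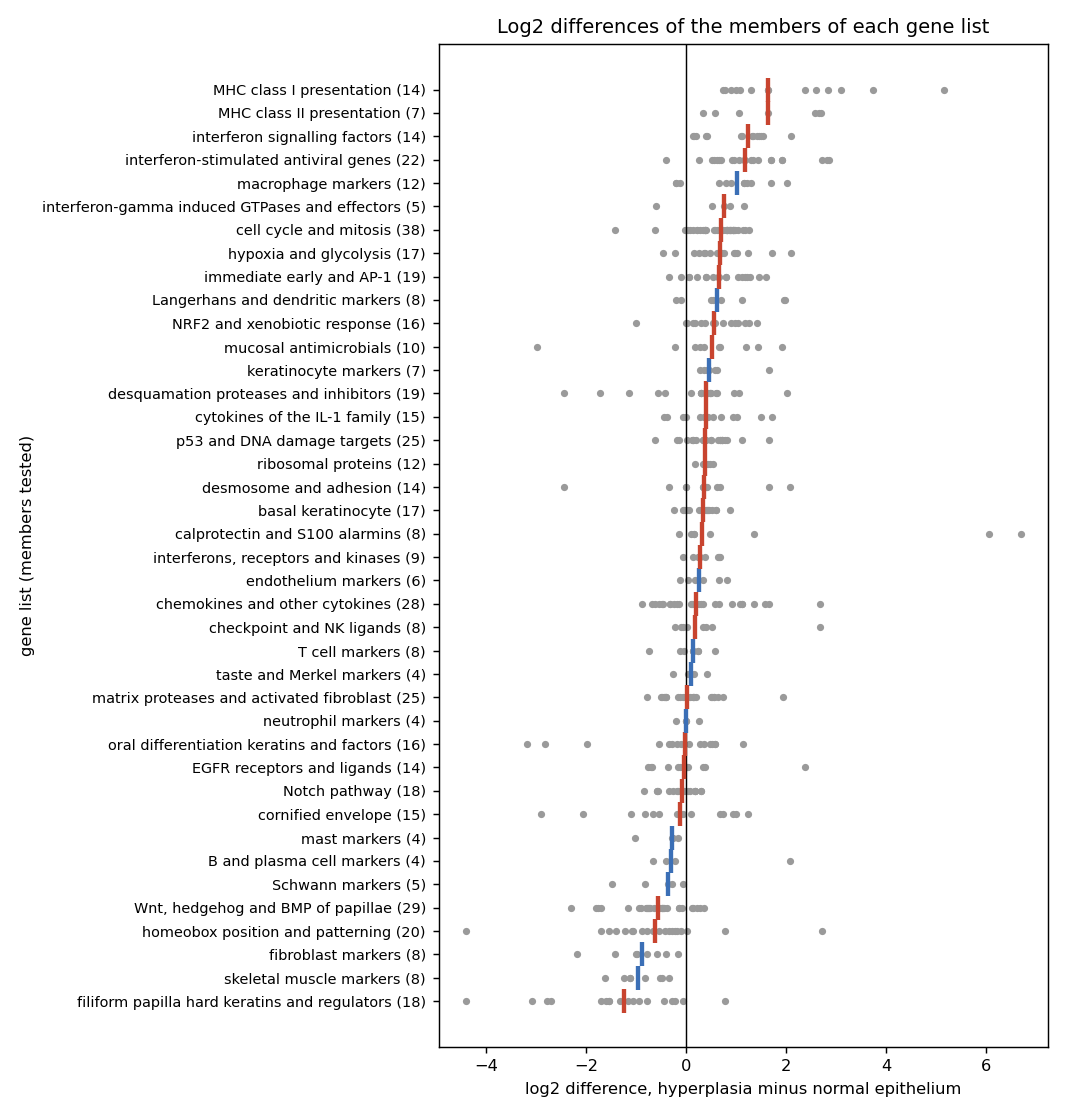
Log2 difference, hyperplasia minus normal epithelium, of each tested member (grey points) of the lists with at least 4 members tested, with the list median as a red bar for pathway lists and a blue bar for cell type markers. Families of rows picked after the data were seen, such as the hair keratins, are not drawn. Among the lists drawn, MHC class I and class II have the highest median (1.64 each) and the papilla list the lowest (-1.23).

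Just outside the threshold stood genes of the same groups and some others. Besides Psmb9 and Psmb8, Dapk2, a death-associated kinase, was at 2.42 ± 0.49 (adjusted p = 0.0547), and Galnt6, which starts mucin-type glycosylation, at 2.41 ± 0.52 (adjusted p = 0.0809). Sgpp2, a sphingosine phosphatase, was at 2.37 ± 0.54 (adjusted p = 0.113). In the other direction stood Wfdc2, a secreted protease inhibitor, at -2.97 ± 0.60 (adjusted p = 0.0547), and Far2, which makes fatty alcohols, at -2.29 ± 0.48 (adjusted p = 0.0767). Isl1, a homeobox factor, was at -3.56 ± 0.78, Lrrc15, a leucine-rich repeat membrane protein, at -4.24 ± 0.92, and Spink6, a kallikrein inhibitor, at -2.44 ± 0.54, with adjusted p-values of 0.09 to 0.0958. These 8 genes were named from those whose groups did not overlap.

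The 18 rows were also read in the later stages, which share the normal libraries, so their values are given only side by side. All 18 had the same sign in dysplasia and in tumor. Against normal, 17 passed in dysplasia (37 rows up, 0.243%, and 60 down, 0.394%, of all tested) and 0 in tumor (0.0% of all tested, with 689 rows at an unadjusted p under 0.05, limma). B2m averaged 4.19 ± 0.04 in normal, 9.24 ± 1.25 in hyperplasia, 8.61 ± 0.79 in dysplasia and 8.11 ± 0.98 in tumor epithelium, and KRT6A_2 2.67 ± 0.48, 5.80 ± 0.84, 5.67 ± 0.86 and 5.84 ± 0.46. CYP2B6_1 was the row that did not pass in dysplasia, at 1.04 ± 0.41, 3.28 ± 0.46, 2.29 ± 0.30 and 1.78 ± 0.15. Between dysplasia and hyperplasia epithelium 0 of 15240 rows passed limma's test, with 305 at an unadjusted p under 0.05.

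**Figure D5:**
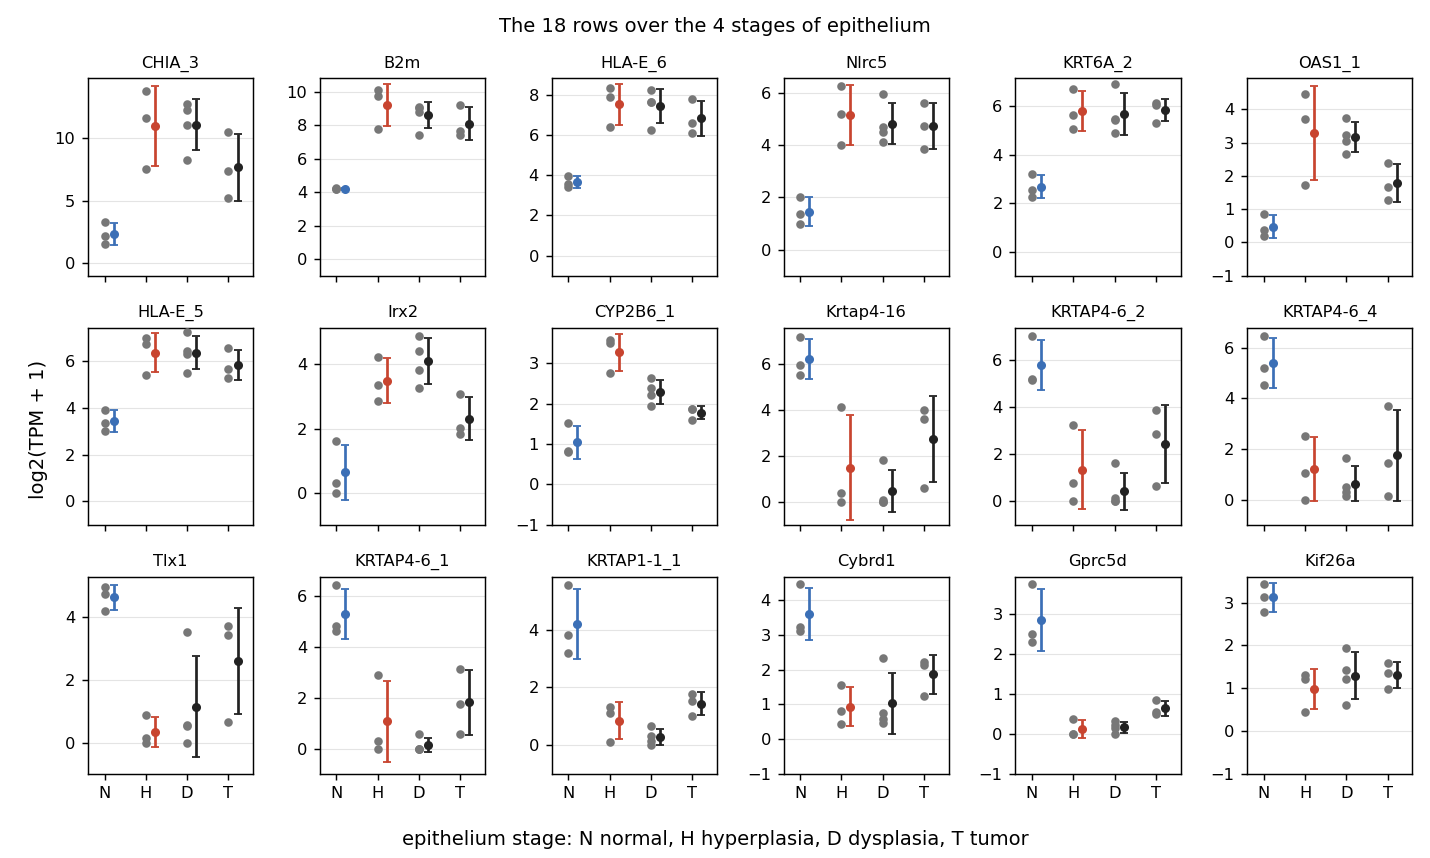
Log2(TPM + 1) of the 18 rows in the 13 epithelium libraries (grey points) by stage, with the mean and SD of each stage beside them (blue for normal, red for hyperplasia, black for dysplasia and tumor). Every panel shows normal apart from hyperplasia and dysplasia, and tumor on the same side of normal, as for B2m.

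In stroma the labels give hyperplasia and normal tissue with 3 libraries each, and the change there was compared with that in epithelium. Of 17101 rows 0 passed (0.0%) in stroma, with 1987 at an unadjusted p under 0.05, and 0 passed for the difference between the 2 compartments, where 683 had an unadjusted p under 0.05 and the smallest adjusted p was 0.901. Each of the 13 epithelium libraries has 1 stroma library of the same stage, age and run, which may come from the same mouse, and this fit took them as independent. With the 13 matches as a block, added after seeing the data, the count was again 0 by limma, where CHIA_3 had the lowest adjusted p (0.094) and 1214 rows had an unadjusted p under 0.05. The median difference of changes was 0.56, and in hyperplasia stroma 1 the genes Lars2, March6 and D17H6S53E held 86% of the TPM. Without that library the median was -0.07 and the count stayed at 0. The epithelial change of B2m exceeded the stromal one by 3.83 ± 1.15 and that of CHIA_3 by 6.54 ± 2.21, while Gprc5d was at -2.71 ± 0.67, each with an adjusted p = 0.901 by limma without the block. Under quantile normalization Gprc5d alone passed (adjusted p = 0.00392). The excess was 1.93 ± 1.03 for Nlrc5 and 1.12 ± 1.32 for Irx2.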

How the data were processed

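The authors deposited log2 values of TPM plus a pseudocount of 1 in a table of 18676 rows, in which mouse genes stand beside human orthologs. The scale was read from the values, which reach 18.67. The submitters' processing notes name Salmon 0.9.1, HTSeq 0.10.0, STAR 2.5.1b and Trimmomatic 0.36 among the tools, besides SAMtools 1.6, FastQC 0.11.5 and bcl2fastq 2.20, without saying what each did, and the build GRCm38.p6. Depth is unknown, so no counting interval was computed. The table held 0 columns outside the 26 libraries.

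Rows that reached a TPM of 1 in 3 or more of the 13 epithelium libraries (15240) were fitted in R 4.3.3 with limma 3.58.1, with terms for the 4 stages and the run and a prior that follows the mean level (8 residual and 11.8 prior degrees of freedom). P-values were Benjamini-Hochberg adjusted over all rows, threshold 0.05. The change in stroma was compared by an interaction term over 26 libraries. Genes were named by a rule: all past the threshold, up to 15 per direction, the next 10 per direction without overlap, 5 per direction from genes in several rows, up to 4 per list and a set of named markers. Wherever others are named, they were chosen after their values were seen. Members, lists and rule were chosen with earlier results of these data known, and lists are described by counts and medians without a test. A list of gene names held 17011 of the 17023 identifiers, and coordinates came from an annotation of GRCm38. Alternatives varied the pseudocount, filter, scaling, covariates, prior and libraries.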

Additional observations from a re-analysis of the deposited data

Results flagged for a closer look

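In dysplasia epithelium, with 4 libraries, 1 library lay above the other 3 in 5 of the 18 rows by a gap large against the range. The highest values were 0.57 for KRTAP4-6_1, 1.61 for KRTAP4-6_2, 1.83 for Krtap4-16, 2.34 for Cybrd1 and 3.51 for Tlx1, all rows that fell in hyperplasia. Each gap exceeded Dixon's critical value for 4 samples, which chance passes in about 1 in 20 groups of normally distributed values. In KRTAP4-6_2 and Krtap4-16 the other 3 libraries were at 0 to 0.12, near the floor, so that rate need not hold. The highest library was dysplasia epithelium 3 in 4 of the rows. In KRTAP4-6_1 it was dysplasia epithelium 1 and the other 3 libraries were at 0, where any value above 0 exceeds the critical value. All 5 values stayed below the 3 normal libraries of their row.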

How the results depend on the processing

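Depth is not recorded in TPM, so values near 0 cannot be told from genes missed at low depth. The 18 called rows kept their sign under every alternative run for them, which was likely in advance, since their groups do not overlap. The calls changed when single libraries were left out, which also changed the balance of stage and run. Against 18 in all (9 up, 9 down), leaving out 1 library gave 0 to 57 in all, 0 to 27 up and 0 to 43 down. The count in all was 6 with a pseudocount of 0.1 (0 down), 5 with no filter (3 up, 2 down) and 33 with the stricter filter of TPM 5 (19 up, 14 down). It was 5 with rows of their own identifier only (2 up, 3 down) and 42 under quantile normalization (30 up). With only the 6 libraries it was 204 (105 up, 99 down), where the prior degrees of freedom were infinite, and with age as a covariate 18 fell. Chosen after seeing the data, the olfactory receptor level as a covariate gave 28 (15 down), with 17 of the 18 calls kept. Leaving out both normal epithelium 3 and hyperplasia epithelium 2 gave 13 up and 6 down, with 11 of the 18 kept. For the difference from stroma, quantile normalization gave 1 call in place of 0.

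The replicate numbers of the titles are not stated to pair the libraries. Deviations of same-numbered libraries correlated at 0.102, -0.722 and -0.681, and those of normal epithelium 3 and hyperplasia epithelium 2, both of high background, at 0.764. With so few libraries and this background these values cannot decide on a pairing. With a replicate block 12 rows rose and 9 fell. For the difference from stroma, a block of libraries matched on stage, age and run left the count at 0, and deviations of matched libraries correlated at -0.144 to 0.6.

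Single genes without a call changed sign. Leaving out 1 library at a time moved the difference from -4.57 to 0.10 for Flg, -2.85 to 0.14 for Krt84, -3.67 to 1.38 for Tchh, -0.85 to 0.11 for Heyl, -1.33 to 0.16 for Nrg1 and -1.92 to 0.031 for Hrnr. The ranges were -1.38 to 0.06 for Nrg2, -1.15 to 0.001 for Nrarp, -0.20 to 0.93 for Krt5, -0.44 to 0.003 for Cd163, -0.35 to 0.80 for Krt4, -0.77 to 0.30 for Cdkn1a and -0.51 to 0.16 for Nos2. With both doubted libraries left out Cdkn1a was at 0.017. Quantile normalization gave -0.089 for Rpl32, -0.28 for Krt13, 0.016 for Cd163 and -0.37 for Krt4. The olfactory receptor covariate gave -0.008 for Rpl3, -0.001 for Krt5, -0.025 for Krt4 and 0.11 for Nos2. Age as a covariate gave 0.043 for Nos2 and the replicate block 0.12 for Cdkn1a. The cause of these changes was not tested.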

Other observations

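Further groups, picked after their values were seen, are given as values. Of 18 clock genes, which keep daily time in most cells, 12 were negative and 0 passed limma's test, with 5 down and 2 up at an unadjusted p under 0.05. Dbp, an output factor of the clock, was at 4.40, 2.72 and 4.36 in normal and 1.19, 1.62 and 1.35 in hyperplasia epithelium (-2.43 ± 0.52, adjusted p = 0.0809). Per3, Nr1d2 and Tef, of the same negative arm or its outputs, were at -1.48 ± 0.42, -1.5 ± 0.48 and -2.11 ± 0.70 and also lay wholly below normal. Arntl, an activator of the clock, was at 1.27 ± 0.49 and Nfil3, a repressor of the genes that Dbp activates, at 1.99 ± 0.52, both wholly above normal. The hour at which the mice were killed is not given in the labels, and its part was not tested.

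All 4 rows of GSTA3, the alpha-class glutathione transferases that detoxify electrophiles, lay wholly above normal (median 1.92). GSTA3_2 was at 3.21, 4.12 and 3.10 in normal and 5.81, 5.28 and 6.44 in hyperplasia epithelium (2.38 ± 0.59), and GSTA3_3 differed by 2.35 ± 0.64. Of these rows 3 had an unadjusted p under 0.05 and 0 passed limma's test. In the APOL1 family, APOL1_10 (2.28 ± 0.54) and APOL1_11 (2.2 ± 0.63) lay wholly above normal, while the median of the 8 rows tested was 0.36.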
